A study of Caenorhabditis elegans with 12 samples.

Results

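The genes described here build fatty acid chains in *Caenorhabditis elegans*: *pod-2* (acetyl-CoA carboxylase), *fasn-1* (fatty acid synthase) and the 8 elongase genes *elo-1* to *elo-7* and *elo-9*. These 10 genes of the 46925 in the files were chosen by name, from what they encode, and no measured value entered the choice. RNA from whole animals grown on HT115 bacteria was sequenced in 12 libraries, 3 in each of 4 groups: animals labelled *sams-1* at D7 of adulthood, wild type at D7, animals labelled *sams-1* at D1 and wild type at D1. The replicates of each group carry the numbers 1, 3 and 5. *sams-1* encodes a synthase of S-adenosylmethionine. The sample labels give the *sams-1* groups as an RNAi treatment of wild-type animals and the wild type as its control, while the paper calls the animals *sams-1(lof)*. In either case every tissue of the animal contributes to a value, and the 3 samples of a group are the only measure of spread.

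A fatty acid is made from malonyl-CoA, which POD-2 supplies, by FASN-1, whose main product is the saturated chain palmitate. Elongases then add carbons to existing chains at the endoplasmic reticulum, each carrying out the first, condensing step of a cycle that a ketoacyl-CoA reductase, a dehydratase and an enoyl-CoA reductase complete. ELO-2 elongates palmitate, ELO-1 acts with it on polyunsaturated chains, and ELO-5 and ELO-6 make the monomethyl branched-chain fatty acids, which *C. elegans* needs for larval growth and builds from a primer derived from leucine. For *elo-3*, *elo-4*, *elo-7* and *elo-9* only membership of the elongase family is given here. In the animal the intestine is a main site of fat synthesis and storage.

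In WBcel235, 6 of the 8 elongase genes lie on chromosome IV. *elo-1* (IV, 9526366 to 9528336) and *elo-7* (IV, 9529947 to 9531400) are neighbours on the plus strand, 1610 bp apart. *elo-5* (IV, 5374616 to 5377117) and *elo-6* (IV, 5386629 to 5388559) lie near each other on the minus strand. *elo-3* (IV, 7237718 to 7240488, plus strand), *elo-2* (IV, 17466062 to 17467408, minus strand), *elo-4* (III, 9332269 to 9334274, minus strand) and *elo-9* (II, 14959526 to 14964108, minus strand) have no other member beside them. *pod-2* occupies II, 1136785 to 1152705, on the plus strand and *fasn-1* occupies I, 8975366 to 8986540, on the minus strand. Exons of 5 members overlap exons of a protein-coding gene on the opposite strand, and the sources used here do not state that counting used strand, so their values are uncertain to that extent. These are *elo-5* with F41H10.3 over 162 bp, *pod-2* with W09B6.4 over 139 bp, *elo-7* with F56H11.2 over 64 bp, *elo-3* with *gstk-2* over 44 bp and *elo-4* with *ufc-1* over 16 bp.

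Total expected counts lay between 3939023 and 7568388 per library. The *sams-1* mRNA went against the label: it stood at 35.7, 72.4 and 51.4 CPM (counts relative to library size, scaled by TMM, a trimmed mean of ratios) in the libraries labelled *sams-1* at D7, against 13.2, 20.02 and 17.6 CPM in wild type, and at 228, 231 and 246 CPM at D1, against 163, 102 and 181 CPM in wild type. The groups therefore go by their labels. Tissue markers differed between the groups as well, and their part in the results below was not tested. The summed level of 17 intestinal markers was 3350 to 6693 CPM in the libraries labelled *sams-1* at D7, against 784 to 1122 CPM in wild type, and 2918 to 5703 CPM at D1, where wild type had 794 to 1036 CPM. The sum of 30 germ line and oocyte markers was 9313 to 11359 CPM with the *sams-1* label against 32101 to 33158 CPM in wild type at D7, and 2458 to 8355 CPM with the label against 20663 to 31334 CPM in wild type at D1, the highest value among the D1 libraries labelled *sams-1* being that of replicate 1. The 25 muscle markers summed to 4218 to 5860 CPM with the *sams-1* label against 1867 to 2566 CPM in wild type at D7. At D1 the muscle sums were 14199 to 18231 against 3951 to 7036 CPM. The 10 neuron markers had 775 to 1165 against 316 to 332 CPM at D7, and 714 to 1007 against 283 to 347 CPM at D1. The 10 hypodermis markers had 519 to 727 against 863 to 908 CPM at D7, and 2830 to 4045 against 1321 to 1958 CPM at D1. In each of these lists, every marker was above 0 in some library. In RNA from whole animals, fewer cells of a type and less RNA per cell cannot be told apart.

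**Figure D1:**
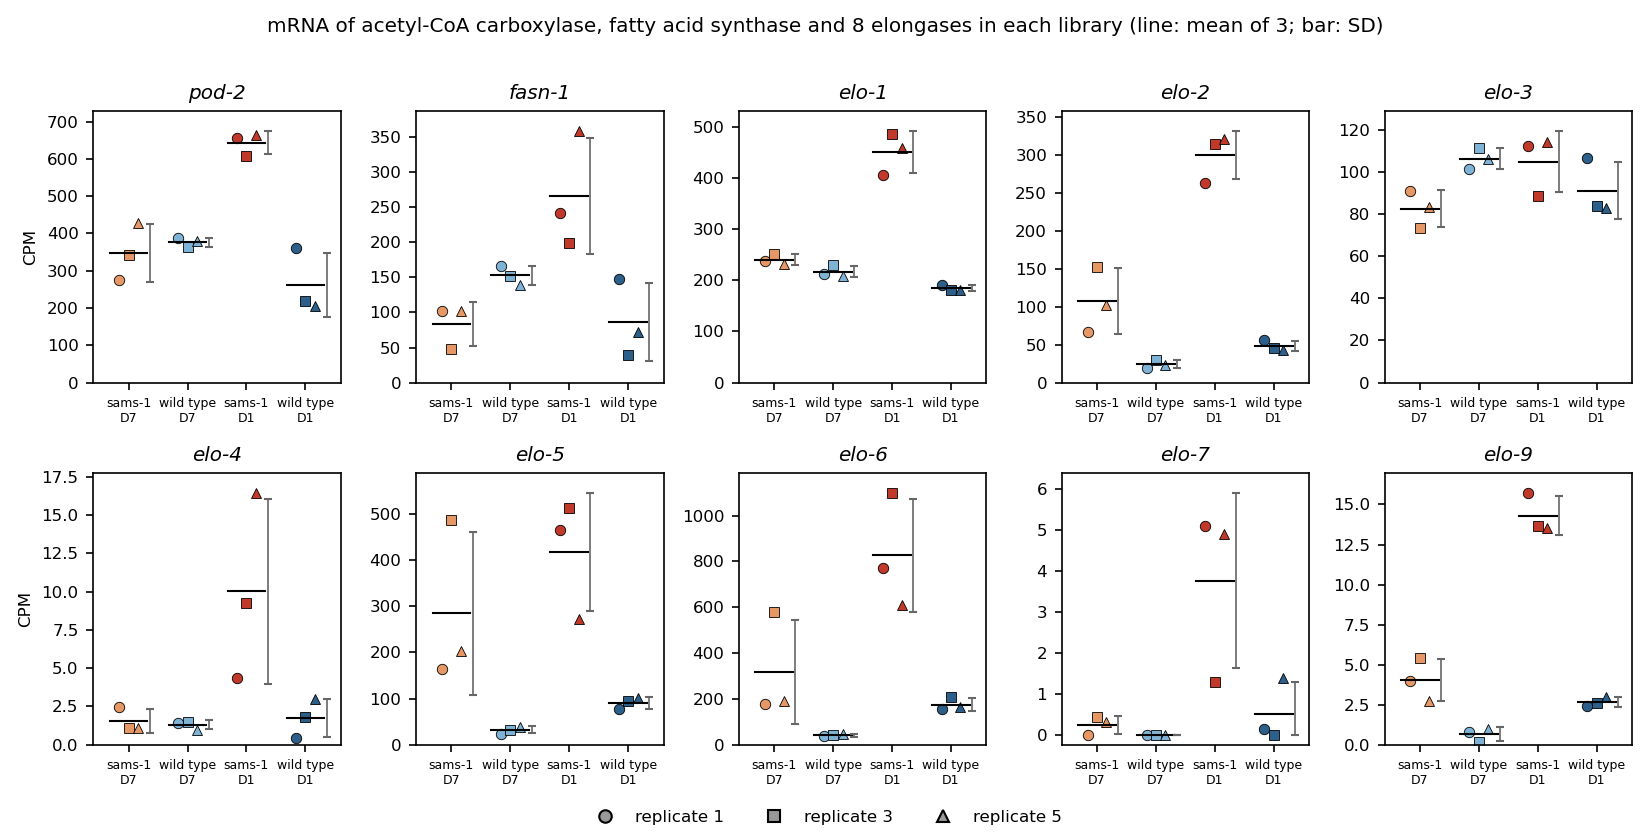
CPM of each member in each of the 12 libraries, with the mean (line) and SD (bar, ended at 0) of 3 replicates per group and a separate linear axis for each gene. At both ages *elo-2*, *elo-5*, *elo-6* and *elo-9* lay higher in every library labelled *sams-1* than in any wild-type library of that age under this scaling, as *elo-1* did by a narrow margin at D7, while *pod-2*, *fasn-1* and *elo-4* did so at D1.

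At D7, 4 of the 8 members tested were higher in the libraries labelled *sams-1* and 0 were lower (edgeR's quasi-likelihood test with Benjamini-Hochberg adjustment over all genes, adjusted p under 0.01). Of all 12242 genes tested at D7, 35.6% were higher and 29.4% lower. At D1, 6 of the 9 members tested were higher and 0 lower, where 17.4% of 12956 genes were higher and 16.8% lower. The median log2 fold change of the members was 1.23 at D7, against 0.13 over all genes tested, and 1.99 at D1, against 0.58 over all genes. The counts of 0 became 2 at D7 and 0 at D1 at an unadjusted p under 0.05, and 1 and 0 with DESeq2, and 0 and 0 with limma on log2(TPM + 1). *elo-7* was too low to be tested at either age, and *elo-4* at D7. These directions depend on the scaling, since library sizes set to the muscle or intestinal markers move the median of all genes to -1.21 or -2.26 at D7 and to -0.73 or -1.48 at D1. Relative to those markers 2 and 0 members were higher at D7, 4 and 4 were lower, and at D1 0 and 0 were higher and 1 and 1 lower. Over all genes these 2 scalings called 1417 and 305 higher and 6444 and 7848 lower at D7, of 12242 tested. At D1 they called 600 and 175 higher and 5032 and 5786 lower, of 12956. The D1 calls also rested on the number of libraries: 0 members passed without *sams-1*-labelled replicate 3 or 5 or without wild-type replicate 1 or 3. There were 3 without wild-type replicate 5 and 5 without *sams-1*-labelled replicate 1. Over all genes, higher and lower calls were 0 and 0 without *sams-1*-labelled replicate 3 or wild-type replicate 3. They were 12 and 2 without *sams-1*-labelled replicate 5, and 5 and 0 without wild-type replicate 1. Without wild-type replicate 5 they were 1289 and 1102 of 14017, and without *sams-1*-labelled replicate 1 they were 2705 and 3694 of 13721. With 1 library left out the D1 log2 fold changes ran from 2.33 to 2.46 for *elo-2*, from 1.04 to 1.95 for *fasn-1* and from 1.67 to 2.90 for *elo-4*, the widest range of the 9 members.

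*pod-2* and *fasn-1* encode the enzymes of synthesis from acetyl-CoA. *pod-2* passed as higher with the *sams-1* label at D1 in the edgeR fit under TMM scaling, and neither gene passed that test at D7. *pod-2* mRNA stood at 657, 607 and 664 CPM in D1 libraries of the *sams-1* label, against 361, 218 and 206 CPM in wild type. The groups did not overlap, and the log2 fold change was 1.12 (SE 0.26, with an adjusted p of 0.00975 by edgeR's quasi-likelihood test). That call was lost when any 1 of the 6 libraries was left out. It was also lost with DESeq2 (adjusted p = 0.0361), limma (adjusted p = 0.0102), RLE factors, no filter and the replicate block. Upper-quartile factors, library totals and 1 fit of all 12 libraries kept it. The direction turned under muscle and intestinal marker scaling. Wild-type replicate 1 was the highest of its group. At D7 *pod-2* measured 274, 342 and 427 CPM in libraries of the *sams-1* label, against 387, 363 and 379 CPM in wild type. These ranges overlap, the log2 fold change was -0.04 with a 95% interval of -0.38 to 0.30, and the adjusted p was 0.826 in the edgeR fit. Under muscle and intestinal marker scaling *pod-2* was -1.38 and -2.46 at D7 and passed as lower. The gene on the opposite strand, W09B6.4, stood at no more than 29.5 CPM in any library.

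*fasn-1* passed the test on the 6 libraries of an age at neither age. With all 12 libraries in 1 fit it passed as higher at D1 (edgeR adjusted p = 0.00487). That fit called 4669 of 14193 genes higher and 3186 lower at D1. At D1 it stood at 241, 199 and 358 CPM in libraries of the *sams-1* label, against 147, 39.6 and 72.6 CPM in wild type. Every library labelled *sams-1* lay above every wild-type one, but the log2 fold change of 1.45 (SE 0.46) had an adjusted p of 0.0286 in the edgeR fit and did not pass. At D7 the values were 102, 48.0 and 103 CPM in libraries of the *sams-1* label, against 167, 153 and 139 CPM in wild type. The order of the groups was thus the opposite of that at D1, again with no overlap, at a log2 fold change of -0.78 (SE 0.25, edgeR adjusted p = 0.0161). That value missed the threshold, and it passed as lower with DESeq2, without a filter on low counts, with the replicate number as a block, under both marker scalings, and without *sams-1*-labelled replicate 3, where it was -0.50.

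*elo-2*, the elongase of palmitate, was raised at both ages. At D7 it stood at 66.5, 153 and 103 CPM in libraries of the *sams-1* label, against 19.1, 29.9 and 23.5 CPM in wild type. The lowest value with the *sams-1* label was more than double the highest in wild type, and the log2 fold change was 2.23 (SE 0.29, with an adjusted p of 1.04e-04 by edgeR's quasi-likelihood test). At D1 it stood at 263, 314 and 321 CPM, against 56.3, 45.4 and 43.3 CPM in wild type, with a log2 fold change of 2.44 (SE 0.20, edgeR adjusted p = 0.00260). Scaling to the intestinal markers brought these to -0.10 at D7 and 0.37 at D1, so the direction at D7 depends on the scaling.

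*elo-1*, whose enzyme elongates polyunsaturated chains, differed between the groups at D1 and hardly at D7 under TMM scaling. At D1 it stood at 407, 487 and 459 CPM in libraries of the *sams-1* label, against 191, 181 and 181 CPM in wild type, with a log2 fold change of 1.09 (SE 0.20, edgeR adjusted p = 0.00453) that turned to -0.24 and -0.98 under muscle and intestinal marker scaling. At D7 the values were 237, 252 and 233 CPM, against 213, 229 and 209 CPM in wild type. The ranges did not overlap, but the difference was small at a log2 fold change of 0.23 (95% interval -0.01 to 0.46), which did not pass with an edgeR adjusted p of 0.0735. The D7 call depends on the scaling. *elo-1* passed as higher with upper-quartile factors (0.68, edgeR adjusted p = 3.61e-04) and library totals (0.50, edgeR adjusted p = 0.00265). It passed as lower under muscle and intestinal marker scaling, at -1.12 and -2.15 (edgeR adjusted p = 1.66e-04 and 2.14e-09).

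The branched-chain elongases *elo-5* and *elo-6* were higher with the *sams-1* label at both ages. *elo-5* stood at 164, 486 and 202 CPM in D7 libraries of the *sams-1* label, against 24.0, 32.5 and 39.4 CPM in wild type. Replicate 3 was far above the other 2 of its group, and even the lowest library with the label was over 4 times the highest wild-type one. The log2 fold change was 3.23 (SE 0.40, edgeR adjusted p = 6.90e-05), and 2.60 without that replicate. At D1 *elo-5* stood at 466, 513 and 272 CPM, against 76.6, 95.2 and 102 CPM in wild type, with a log2 fold change of 1.99 (SE 0.31, edgeR adjusted p = 0.00334). Under intestinal marker scaling the D1 value was -0.02 and the D7 value was 1.03, and neither passed. F41H10.3, which overlaps *elo-5* on the opposite strand, moved the other way, at 81.0 to 94.5 CPM in the libraries labelled *sams-1* against 262 to 278 CPM in wild type at D7. Estimated counts of *elo-5* were not whole in 9 of the 12 libraries, and those of the other members were whole in all 12.

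*elo-6* resembled *elo-5* library by library. At D7 it stood at 176, 577 and 193 CPM in libraries of the *sams-1* label, against 35.99, 41.4 and 48.3 CPM in wild type. Replicate 3 was again the high one, and the log2 fold change was 2.99 (SE 0.43, edgeR adjusted p = 1.75e-04), or 2.22 without it. At D1 the values were 771, 1097 and 610 CPM, against 155, 206 and 165 CPM in wild type. The lowest library labelled *sams-1* had about 3 times the highest wild-type value, and the log2 fold change was 2.04 (SE 0.30, edgeR adjusted p = 0.00303). Under intestinal marker scaling the value was 0.81 at D7 and -0.02 at D1, and neither passed.

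Among the elongases with no role given here, *elo-9* was low but clearly separated. It stood at 3.99, 5.40 and 2.75 CPM in D7 libraries of the *sams-1* label, against 0.796, 0.167 and 0.985 CPM in wild type, which rests on 21, 25 and 18 counts against 5, 1 and 6. The log2 fold change was 2.65 (SE 0.54, edgeR adjusted p = 0.00150). At D1 it stood at 15.7, 13.7 and 13.5 CPM, against 2.41, 2.59 and 2.99 CPM in wild type, a log2 fold change of 2.22 (SE 0.36, edgeR adjusted p = 0.00364). *elo-9* stayed positive under all scalings tried at both ages, with 0.43 at D7 and 0.21 at D1 relative to the intestinal markers, but it passed under neither marker scaling.

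*elo-3* was the one well-measured elongase without a difference past the test at either age. It stood at 90.8, 73.5 and 83.3 CPM in D7 libraries of the *sams-1* label, against 101, 111 and 106 CPM in wild type, and at 112.2, 88.3 and 114 CPM at D1, against 106, 83.6 and 82.8 CPM in wild type. At D7 the groups did not overlap, and at D1 they did. The log2 fold change was -0.29 at D7 (95% interval -0.57 to -0.01, edgeR adjusted p = 0.0596) and 0.02 at D1 (95% interval -0.47 to 0.51, edgeR adjusted p = 0.943). Differences of more than about 0.5 on the log2 scale in either direction lie outside the D1 interval under this scaling, although the sign of the D1 value turned in several alternatives and that of the D7 value with upper-quartile factors, to 0.17. Relative to the intestinal and muscle markers *elo-3* was lower at both ages, at -2.70 and -1.65 at D7 and -1.9996 and -1.32 at D1. *gstk-2*, which overlaps it, stood at no more than 7.95 CPM.

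*elo-4* and *elo-7* were near the limit of detection. *elo-4* had 13, 5 and 7 counts in the D7 libraries labelled *sams-1*, against 9, 9 and 6 in wild type, and 31, 50 and 97 counts at D1, against 3, 11 and 15 in wild type. At D1 its log2 fold change was 2.31 (SE 0.77, edgeR adjusted p = 0.0331), which was 1.67 without *sams-1*-labelled replicate 5 and 2.90 without wild-type replicate 5, and at D7 it was too low to be tested. With all 12 libraries in 1 fit *elo-4* passed as higher at D1 (edgeR adjusted p = 0.00444). *elo-7* had 0, 2 and 2 counts in the D7 libraries labelled *sams-1* and 0 counts in each wild-type library of that age. At D1 it had 36, 7 and 29 counts in the libraries labelled *sams-1*, against 1, 0 and 7 in wild type, and the ranges overlap in CPM (1.29 to 5.09 in libraries of the *sams-1* label against 0 to 1.40 in wild type). F56H11.2, on the opposite strand from *elo-7*, was higher in the same D1 libraries, at 1.84 to 6.65 CPM against 0.302 to 0.399 CPM, and how reads in the overlap were assigned was not tested. The counts of *elo-7* were whole in all 12 libraries.

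**Figure D2:**
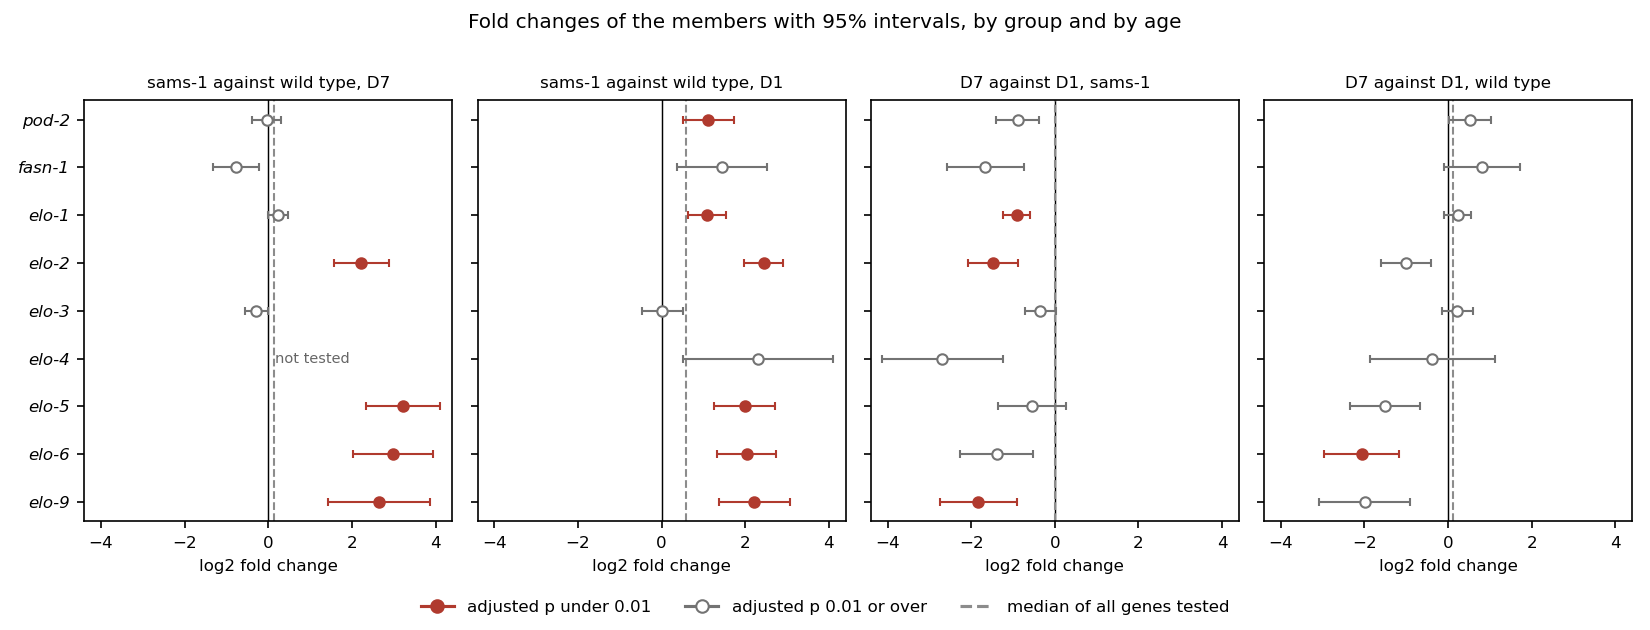
Log2 fold changes of 9 members with 95% intervals, for the libraries labelled *sams-1* against wild type at each age and for D7 against D1 in each group, where filled points passed at an adjusted p under 0.01 and the dashed line is the median of all genes tested, which was 0.13, 0.58, 0.02 and 0.11 from left to right. At D7 *elo-2*, *elo-5*, *elo-6* and *elo-9* lie at 2.23 or above while *pod-2*, *fasn-1*, *elo-1* and *elo-3* lie between -0.78 and 0.23, values that marker scalings shift downward together.

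The changes with age that passed in the libraries labelled *sams-1* were all decreases. At D7 against D1 in these animals 0 members were higher and 3 of 9 lower by edgeR's quasi-likelihood test over all 12 libraries, where 3.29% of 14193 genes were higher and 6.34% lower. The median over the members was -1.39, against 0.02 over all genes, and at an unadjusted p under 0.05 there were 0 higher and 7 lower. DESeq2 gave 0 higher and 6 lower, and limma 0 higher and 3 lower. *elo-1* fell by 0.91 on the log2 scale (SE 0.15, adjusted p = 0.00251), *elo-2* fell by 1.48 (SE 0.27, adjusted p = 0.00417) and *elo-9* fell by 1.83 (SE 0.42, adjusted p = 0.00993), all in that edgeR fit. The *elo-9* call was lost in 11 of the 12 fits that left out 1 library, and with RLE factors, library totals, no filter, the replicate block and both marker scalings. The *elo-1* and *elo-2* calls were each lost in 5 of those 12 fits, and under both marker scalings. *elo-4*, *elo-6*, *fasn-1* and *pod-2* had log2 fold changes of -2.69, -1.39, -1.66 and -0.89 with adjusted p between 0.0124 and 0.0229, and *elo-5* and *elo-3* had -0.55 and -0.35. The count was 0 without *sams-1*-labelled replicate 3 or 5 at D1, *sams-1*-labelled replicate 1 or 5 at D7 or wild-type replicate 3 at D7, and 6 without wild-type replicate 1 at D1. Over all genes 143, 169, 69, 66 and 239 were lower in the fits with none, in that order, of 14509 to 14794 tested. Without wild-type replicate 1 at D1, 1477 of 14805 genes were lower. In the same libraries the muscle markers summed to 4218 to 5860 CPM at D7 against 14199 to 18231 CPM at D1, the hypodermis markers to 519 to 727 CPM against 2830 to 4045 CPM, and the germ line markers to 9313 to 11359 CPM against 2458 to 8355 CPM, and their part in these values was not tested. Relative to the muscle markers *elo-1*, *elo-2*, *elo-3*, *elo-5*, *elo-6* and *pod-2* turned positive.

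In wild type the sign of the estimate with age differed between the members, and only *elo-6* passed in the edgeR fit. At D7 against D1 0 members were higher and 1 of 9 was lower in the edgeR fit, where 2.94% of genes were higher and 2.94% lower. At an unadjusted p under 0.05 there was 1 higher and there were 4 lower, with 0 and 4 by DESeq2 and 0 and 1 by limma. *elo-6* fell by 2.07 on the log2 scale (SE 0.41, edgeR adjusted p = 0.00658), to 35.99 to 48.3 CPM at D7, against 155 to 206 CPM at D1, with no overlap. The call was lost without wild-type replicate 3 or 5 at D1, without any 1 of the 3 wild-type libraries at D7, and under both marker scalings, where the value was -0.81 relative to the muscle markers and -2.13 relative to the intestinal ones. The muscle markers summed to 1867 to 2566 CPM at D7 and 3951 to 7036 CPM at D1 in wild type, and the hypodermis markers to 863 to 908 CPM at D7 and 1321 to 1958 CPM at D1, and the part of either in these values was not tested. *elo-9*, *elo-5* and *elo-2* had values of -1.995, -1.51 and -1.001 (edgeR adjusted p of 0.0199, 0.0210 and 0.0298), whereas *fasn-1*, *pod-2*, *elo-1* and *elo-3* had 0.82, 0.52, 0.23 and 0.22 with adjusted p between 0.154 and 0.420 in the edgeR fit. *elo-4* had -0.38 (edgeR adjusted p = 0.76). Leaving out *sams-1*-labelled replicate 1 or 3 at D7, which changes the shared estimate of spread, gave 2 lower. Over all genes 263 of 14746 and 241 of 14786 were lower in those fits. Both changes with age share libraries with the comparisons between groups.

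The test of whether the difference between groups itself changed with age called 0 members in either direction, where 0.0141% of 14193 genes were called higher at D7 and 0.0141% lower. At an unadjusted p under 0.05 there were 0 higher and 5 lower, and by DESeq2 0 higher and 2 lower, *elo-1* and *fasn-1*, and by limma 0 of each. The estimates were -2.48 for *fasn-1* (SE 0.59, edgeR adjusted p = 0.0607), -1.41 for *pod-2* (SE 0.33, edgeR adjusted p = 0.0579) and -1.14 for *elo-1* (SE 0.21, edgeR adjusted p = 0.0334). *elo-1* passed without *sams-1*-labelled replicate 1 at D1, at -0.77. For *elo-5* and *elo-6* the estimates were 0.96 and 0.68, with 95% intervals of -0.20 to 2.11 and -0.54 to 1.89.

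Levels were compared between genes on the deposited TPM, which corrects for transcript length. In wild type at D7 *elo-1* led at 208 to 235.4 TPM, followed by *elo-3* at 66.3 to 72.5 TPM. *elo-6* at 43.8 to 56.7 TPM, *pod-2* at 50.9 to 54.1 TPM and *elo-5* at 29.4 to 46.5 TPM followed, with ranges that overlap between *elo-6* and each of the others. *elo-2* at 20.2 to 31.5 TPM overlapped *elo-5* from below, and *fasn-1* stood at 14.7 to 18.2 TPM. In the libraries labelled *sams-1* at D7 the ranges of *elo-6* (219 to 686 TPM), *elo-5* (206 to 581 TPM) and *elo-1* (242 to 254 TPM) overlapped at the top, above *elo-2* at 72.1 to 158 TPM. *elo-3*, *pod-2* and *fasn-1* stood there at 47.1 to 61.0, 40.3 to 61.7 and 5.17 to 11.5 TPM. At D1 *elo-6* led in the libraries labelled *sams-1* at 601 to 1054 TPM, ahead of *elo-5* at 269 to 530 TPM, which overlapped *elo-1* at 383 to 396 TPM. In wild type at D1 *elo-6* at 178 to 251 TPM and *elo-1* at 186 to 199 TPM overlapped. *elo-4*, *elo-7* and *elo-9* stayed below 16 TPM in all libraries.

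**Figure D3:**
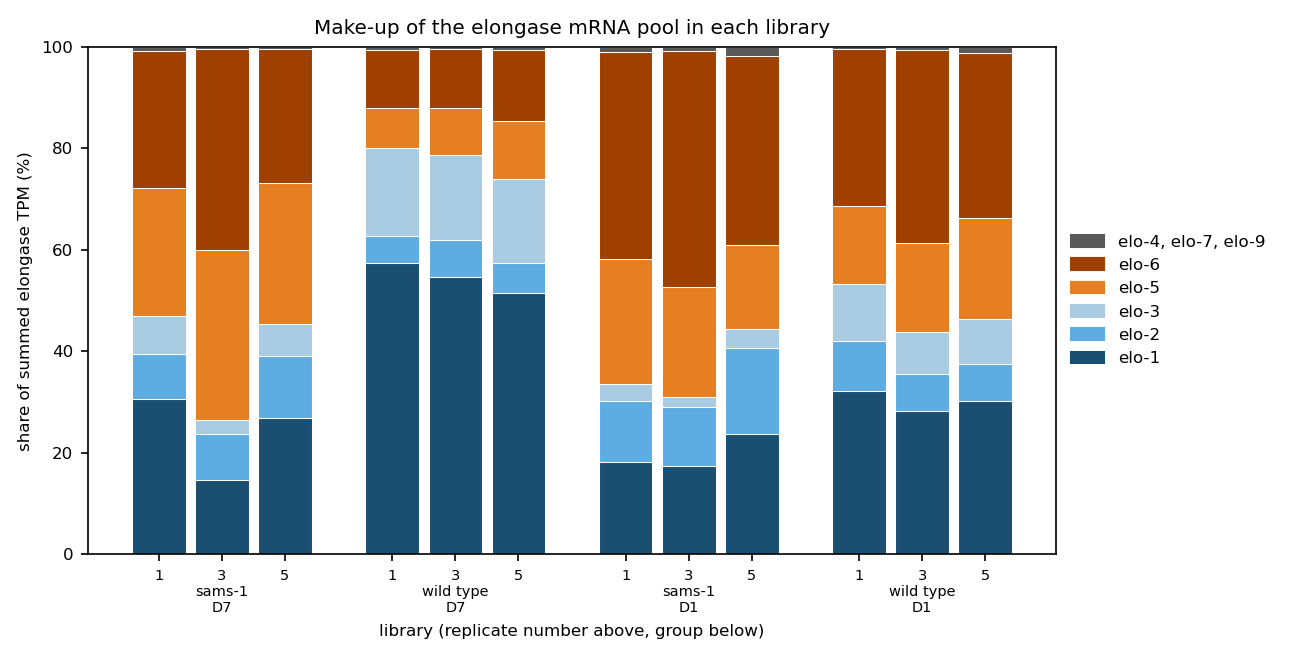
Share of each elongase in the summed TPM of the 8 elongases, in percent, for each library. The orange and brown segments (*elo-5* and *elo-6*) take 52.1% to 73.1% in the D7 libraries labelled *sams-1*, against 19.2% to 25.5% in wild type at D7.

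As a share within a library, which does not depend on how libraries are scaled to each other, the make-up of the elongase mRNA pool in wild type at D7 stood apart from that of the other 3 groups. *elo-5* and *elo-6* together made up 59.8% ± 11.6 of the summed elongase TPM (SD, n = 3) in the libraries labelled *sams-1* at D7, against 21.8% ± 3.30 in wild type. At D1 the share was 62.5% ± 7.64 in the libraries labelled *sams-1*, against 51.4% ± 4.76 in wild type, and the ranges overlapped there. *elo-1* took 24.1% ± 8.38 in the libraries labelled *sams-1* at D7, against 54.5% ± 3.02 in wild type, and *elo-3* took 5.45% ± 2.46 against 16.9% ± 0.414. The sum itself was 815, 1732 and 897 TPM in the D7 libraries labelled *sams-1*, against 381, 431 and 404 TPM in wild type, and 2145, 2273 and 1619 TPM at D1, against 578, 663 and 659 TPM. These shares are a description, without a test.

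Ratios between members within a library give the same kind of view. *elo-6* exceeded *fasn-1* by 19.1, 133 and 20.9 times in TPM in the libraries labelled *sams-1* at D7, against 2.40, 3.01 and 3.86 times in wild type, without overlap. At D1 the ratio was 35.5, 61.0 and 18.9 against 11.7, 57.6 and 25.2, and the groups overlapped. *elo-2* relative to *elo-1* stood at 0.288, 0.622 and 0.454 in the libraries labelled *sams-1* at D7, against 0.0923, 0.134 and 0.116 in wild type, and at 0.665, 0.662 and 0.719 at D1, against 0.302, 0.257 and 0.245. The *elo-2* to *elo-1* ratio thus separated the groups at both ages. The 2 branched-chain elongases kept a ratio of *elo-6* to *elo-5* between 0.948 and 2.23 in all 12 libraries, lower with the *sams-1* label at D7 (0.948 to 1.18, against 1.22 to 1.49 in wild type) and overlapping at D1. *pod-2* to *fasn-1* lay at 3.51, 9.29 and 5.44 in libraries of the *sams-1* label at D7, against 2.97, 3.06 and 3.47 in wild type, so that the groups nearly touched without overlap. At D1 the ratio was 2.42 to 3.98 with the *sams-1* label and 3.15 to 7.18 in wild type, and the groups overlapped.

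**Figure D4:**
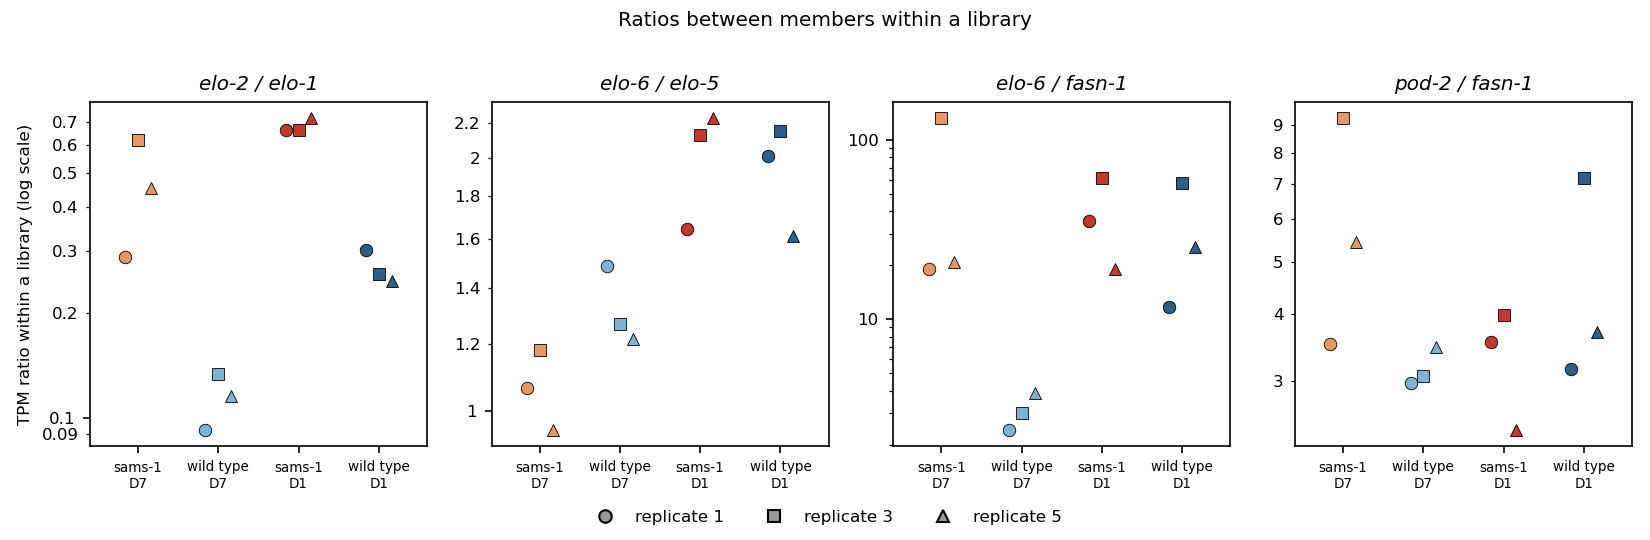
Ratios of TPM between pairs of members within each library, on log axes, with 1 point per library. *elo-2* to *elo-1* separates the libraries labelled *sams-1* from wild type at both ages and *elo-6* to *fasn-1* at D7, while at D1 the 3 other ratios overlap between the groups.

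Of the genes for the other steps of the elongation cycle, those for the reductase and the dehydratase passed the test. *let-767*, the ketoacyl-CoA reductase gene, and *hpo-8*, the dehydratase gene, were both higher at both ages and *art-1*, an enoyl-CoA reductase gene, at neither (edgeR's test, 2 of 3 tested at D7 and 2 of 4 at D1, where 35.6% and 17.4% of all genes were higher). DESeq2 called 1 of them higher at D1, *let-767*. Their log2 fold changes at D7 were 0.76 for *let-767* (adjusted p = 2.70e-04) and 0.83 for *hpo-8* (adjusted p = 2.35e-04) in the edgeR fit. *let-767* stood at 219, 270 and 234 CPM in D7 libraries of the *sams-1* label, against 143, 155 and 152 CPM in wild type. At D1 their values were 1.51 (edgeR adjusted p = 0.00429) and 1.15 (edgeR adjusted p = 0.00468). The median over these genes was 0.76 at D7 and 1.33 at D1, and turned to -1.60 and -0.78 relative to the intestinal markers. Also counted with them was *elo-8*, a further elongase gene, which had 10.5, 10.9 and 10.2 CPM in D1 libraries of the *sams-1* label, against 0.754, 0.324 and 7.58 CPM in wild type, and did not pass with an edgeR adjusted p of 0.172. With age *let-767* and *art-1* fell by 1.18 and 1.02 on the log2 scale in the libraries labelled *sams-1* (edgeR adjusted p = 0.00397 and 0.00834).

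As a set, genes grouped here around the supply of acetyl-CoA, biotin attachment and reducing power for fatty acid synthesis did not rise with *elo-2*, *elo-5* and *elo-6*. Of 8 genes so grouped edgeR called 0 higher and 4 lower at D7, and 0 higher and 2 lower at D1. Among the 8 was *mlcd-1*, a malonyl-CoA decarboxylase gene, whose product breaks down malonyl-CoA. It had -0.31 at D7 and -1.09 at D1 and passed at neither age. Over all genes 35.6% were higher and 29.4% lower at D7, and 17.4% and 16.8% at D1. Medians over the 8 were -0.44 and -0.53, which upper-quartile factors turned to 0.01 and 0.06. The number higher was 0 at D7 and 1 at D1 at an unadjusted p under 0.05, and 0 at both ages with DESeq2 and with limma. *idh-1*, an isocitrate dehydrogenase gene, was that 1, with a log2 fold change of 0.995 (edgeR adjusted p = 0.0137). *acly-2*, an ATP citrate lyase gene, stood at 116, 100 and 161 CPM in D7 libraries of the *sams-1* label, against 504, 468 and 484 CPM in wild type. Its log2 fold change was -1.87 at D7 (edgeR adjusted p = 1.31e-05) and -1.84 at D1 (edgeR adjusted p = 0.00754), negative under each scaling tried, from -4.34 to -1.42 at D7 and from -3.72 to -1.26 at D1. *men-1*, a malic enzyme gene, and *acly-1* were lower at D7, at -0.66 and -0.93. *bpl-1*, the biotin protein ligase gene, was lower at both ages, at -0.53 at D7 (edgeR adjusted p = 0.00692) and -1.02 at D1 (edgeR adjusted p = 0.00931).

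Among 6 genes grouped here around branched-chain amino acid breakdown and branched-chain fatty acids, 2 were higher and 3 lower at D7, and 2 higher and 0 lower at D1. The shares over all genes tested were 35.6% higher and 29.4% lower at D7, and 17.4% and 16.8% at D1. *acs-1*, an acyl-CoA synthetase gene linked to branched-chain fatty acids, and *bcat-1*, the branched-chain aminotransferase gene, were higher at both ages, with log2 fold changes of 1.54 and 1.35 at D7 (edgeR adjusted p = 1.05e-05 and 5.25e-05) and 1.58 and 1.55 at D1 (edgeR adjusted p = 0.00355 and 0.00923). At D1 limma called 1 of the pair, *acs-1*. This gene stood at 152, 152 and 190 CPM in D7 libraries of the *sams-1* label, against 60.8, 56.4 and 62.0 CPM in wild type. Of the 4 genes of the branched-chain ketoacid dehydrogenase complex, *dld-1*, *dbt-1* and *bckd-1A* were lower at D7, at -0.83, -0.50 and -0.50, and edgeR called 0 at D1 in either direction, where 0 were under an unadjusted p of 0.05 and 0 were called lower by DESeq2 or limma. Relative to the intestinal markers *acs-1* was -0.88 at D7 and -0.39 at D1, and *bcat-1* was -1.08 and -0.40.

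The desaturases, which place double bonds into the same chains, were higher in 7 of 7 at D7 and 6 of 7 at D1, with medians of 1.55 and 2.55 that became -0.82 and 0.45 relative to the intestinal markers. Over all genes 35.6% were higher at D7 and 17.4% at D1. *fat-7*, a stearoyl-CoA desaturase gene, had the largest values at 3.30 and 4.29 and stayed positive under each scaling tried, at no less than 1.01 at D7 and 2.33 at D1. Of 7 regulator genes of lipogenesis, *nhr-80*, a nuclear hormone receptor gene, was higher by edgeR at both ages, and at D1 by neither DESeq2 nor limma, with log2 fold changes of 1.65 (edgeR adjusted p = 1.75e-04) at D7 and 1.52 (edgeR adjusted p = 0.00951) at D1, which intestinal marker scaling turned to -0.80 and -0.59. *nhr-66* was lower at both ages with -1.13 (edgeR adjusted p = 1.91e-05) and -1.31 (edgeR adjusted p = 0.00342), and *scp-1*, whose product escorts SREBP in the mammalian pathway, was lower at D7. *sbp-1*, the SREBP gene, did not pass at either age, at 0.64 (edgeR adjusted p = 0.0361) and 0.70 (edgeR adjusted p = 0.0437).

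**Figure D5:**
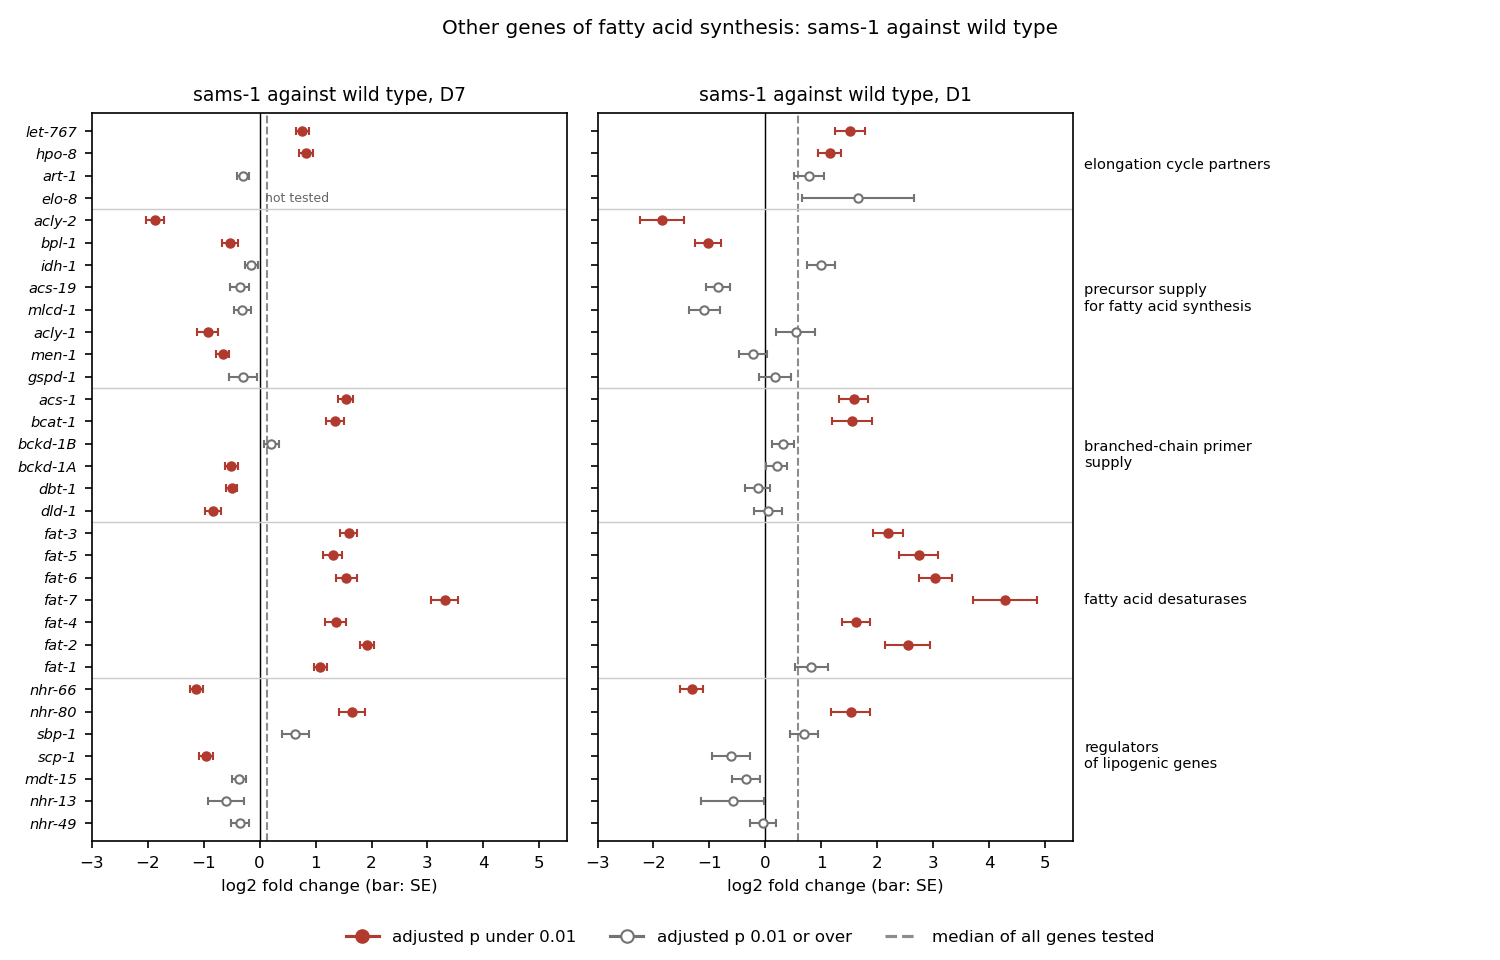
Log2 fold changes (points) with standard errors (bars) of 32 other genes of fatty acid synthesis in the libraries labelled *sams-1* against wild type, at D7 and at D1, where filled points passed at an adjusted p under 0.01 and the dashed line marks the median of all genes tested, 0.13 at D7 and 0.58 at D1. The desaturases lie to the right at both ages and *acly-2* to the left, with values that intestinal marker scaling lowers.

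Finally, the genes whose pattern over the 12 libraries was closest were listed for each member with a mean of at least 10 CPM. Distances were Euclidean, in centred log2 CPM, among 5608 genes with a letter-and-number symbol such as *elo-6* and a mean of at least 10 CPM. Genes with only a sequence name were not compared. Among these genes *nhr-68*, a nuclear hormone receptor gene, was closest to both *elo-6* (0.97) and *elo-5* (1.26). Next came *gst-26* for *elo-6* (1.06) and *elo-6* itself for *elo-5* (1.42). The median distances over the genes compared were 6.498 for *elo-6* and 6.21 for *elo-5*. For *elo-2* the closest were *cept-1* (1.17), a choline/ethanolamine phosphotransferase gene, and *let-268* (1.26). For *pod-2* they were *art-1* (0.68), of the elongation cycle, and *vha-19* (0.70), and for *elo-1* the mitochondrial genes *nuo-2* (0.62) and *cyc-2.1* (0.65). *elo-3* had *cyn-3* (0.37) and *prdx-2* (0.46), and *fasn-1* had *cdh-1* (1.19) and *dys-1* (1.23). Within the list the closest pairs were *elo-1* with *pod-2* (0.93) and *elo-5* with *elo-6* (1.42). The points share libraries, so these distances are a description.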

How the data were processed

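RNA of whole animals was measured in 12 libraries, 3 per group, grouped by title. Per the submitters' processing notes the authors used Trimmomatic 0.39 for trimming, STAR for alignment and RSEM 1.3.3 for expected counts per gene, with the ws245 annotation named in the paper. The TPM values were deposited beside them and correct for transcript length. The genome build of the alignment is not given in the sources used here, and coordinates were taken from Ensembl release 115 (WBcel235). The authors' own comparisons used DESeq2 1.38.

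Expected counts (at most 2.41% not whole in a library) were rounded, and edgeR 4.0.16 under R 4.3.3 was applied (TMM, filterByExpr, quasi-likelihood F test), on 6 libraries per age for the groups and on all 12 for age and interaction, with Benjamini-Hochberg adjustment over all genes and a threshold of 0.01. The precision of each value is the standard error of its fit. CPM were scaled over all 12 libraries. The levels and shares are in TPM, with no test. P-values set a difference against the spread between samples within groups, which was estimated over all the groups in a fit.

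Alternatives were RLE and upper-quartile factors, library totals, scaling to 25 muscle or 17 intestinal markers, no filter, DESeq2 1.42.0, limma 3.58.1 on log2(TPM + 1), a replicate block, 1 fit for all libraries, and each library left out. Named genes are the 10 members, at most 3 passing genes per direction of each list by smallest adjusted p, the 2 genes nearest in pattern to a member of at least 10 CPM, genes beside or overlapping a member, and *sams-1*. The search for near patterns covered only genes with a letter-and-number symbol and a mean of at least 10 CPM. *elo-8* and *sbp-1* were named after their values were seen. The programs were tested on simulated data. The members, lists and tests were chosen with earlier results of these data known. No sequences were printed, and other data of the study were not analysed here.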

Additional observations from a re-analysis of the deposited data

How the results depend on the processing

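Of the values of single members, 84 of 144 kept direction and call in the comparison of groups at D1, all but 5 weaker, 12 stronger and 7 reversed ones of 128 at D7, 181 of 189 in the interaction, 141 of 189 for age in the libraries labelled *sams-1* and 166 of 189 for age in wild type, and the cause of the changes was not tested. Muscle marker scaling left 0 members higher and 1 lower at D1, 2 higher and 4 lower at D7, 1 higher and 0 lower with age in the libraries labelled *sams-1* and 4 higher and 0 lower with age in wild type. With age it called 8099 of 14193 genes higher and 236 lower in the libraries labelled *sams-1*, and 7383 and 359 in wild type. Intestinal marker scaling left 0 higher and 1 lower at D1, 0 higher and 4 lower at D7 and 0 lower with age in either group. Over all 14193 genes it called 423 lower with age in the libraries labelled *sams-1* and 321 in wild type. No filter gave 1 lower at D7 and 3 lower with age in wild type, the replicate block 1 lower at D7, and DESeq2 1 lower at D7, 2 lower in the interaction, and 6 and 4 lower with age in the libraries labelled *sams-1* and in wild type. The replicate block changed no other count by over 1.5 times. With all 12 libraries in 1 fit, *fasn-1* and *elo-4* also passed as higher at D1, where 4669 of 14193 genes were higher. Deviations of same-numbered libraries from their group means had correlations of -0.33 to 0.20. Between the groups at D1 these were 0.20, 0.08 and 0.13 for replicates 1, 3 and 5, where different-numbered pairs had -0.28 to 0.21. Whether same-numbered libraries share a batch was not tested. Leaving out 1 library gave 0 to 5 higher at D1, 0 to 1 lower at D7 and in the interaction, 0 to 6 lower with age in the libraries labelled *sams-1* and 0 to 2 in wild type. Over all genes the calls moved too, from 0 to 2705 higher at D1 and from 66 to 1477 lower with age in the libraries labelled *sams-1*.

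Directions turned at D1 under muscle and intestinal marker scaling for *elo-1* (-0.24 and -0.98), *pod-2* (-0.19 and -0.90) and *elo-3* (-1.32 and -1.9996), and under the intestinal one for *elo-5* (-0.0151), *elo-6* (-0.0170) and *fasn-1* (-0.60). *elo-3* at D1 was also negative with RLE factors (-0.22), without a filter (-0.19), with DESeq2 (-0.30) and with limma (-0.0468), and lay between -0.19 and 0.13 with 1 library left out. At D7 directions turned for *elo-1* under both marker scalings (-1.12 and -2.15), for *elo-2* under the intestinal one (-0.10), for *elo-3* with upper-quartile factors (0.17), and for *pod-2* with upper-quartile factors (0.41) and library totals (0.23). With 1 library left out, *pod-2* at D7 lay between -0.25 and 0.0831 and the interaction between -0.83 and 0.17 for *elo-2*, -0.11 and 1.35 for *elo-6* and -0.11 and 0.75 for *elo-9*, which limma gave as -0.22. Muscle marker scaling turned the change with age in the libraries labelled *sams-1* for *elo-1* (0.69), *elo-2* (0.17), *elo-3* (1.24), *elo-5* (1.16), *elo-6* (0.32) and *pod-2* (0.71), and in wild type for *elo-2* (0.36) and *elo-4* (0.91). In wild type the change with age turned without a filter for *elo-1* (-0.0276) and *elo-3* (-0.0320), and for *elo-4* lay between -0.84 and 0.12 with 1 library left out. Depth limits *elo-4*, *elo-7* and *elo-9*.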
